A study of Mus musculus with 85 samples.

Results

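The miRNAs described here are the erythroid miRNAs of the mouse heart, those made in the precursors of red blood cells and carried on in red cells. They are 5 of the 1977 mature miRNA rows in the count table, mmu-miR-451a, mmu-miR-144-3p, mmu-miR-144-5p, mmu-miR-486a-5p and mmu-miR-486b-5p, and were chosen by name. The names are written without the species prefix from here on. MiR-486a-5p and miR-486b-5p held equal counts in 85 of 85 libraries, so they are 1 measurement and the first name is used for it. Hearts were taken from 85 females of the HMDP, the Hybrid Mouse Diversity Panel, which gathers inbred strains of different genotypes. Each animal ate chow for 8 weeks, then the HF/HS diet, rich in fat and sucrose, for a further 8 weeks, and was 16 weeks old, so there is 1 group, no control diet and 1 library per heart. The strain of each animal was not used here, and whether blood was flushed from the hearts is not given in the sources used here. The question taken up was how much of these miRNAs each heart carried, whether they went up and down together as a measure of blood left in the tissue, and which other miRNAs followed them.

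A miRNA is a short RNA that guides Argonaute proteins to messenger RNAs, mainly through its seed, bases 2 to 8 from the 5′ end. MiR-144 and miR-451a lie next to each other and are transcribed together in erythroid cells under GATA1, and miR-451a is cut by Argonaute 2 instead of Dicer, so that its mature strand runs on into the loop of its hairpin. MiR-486 lies in the gene of the red cell membrane protein ankyrin 1 and is known both from erythroid cells and from muscle. Mature red cells have no nucleus but keep these miRNAs, which makes them a common sign of blood in tissue samples.

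RefSeq sequences on GRCm38.p6 were at hand for 3 of the 5 members. They are shown with the seed in capitals because the 3 strands come from neighbouring hairpins and yet share no seed.
miR-451a: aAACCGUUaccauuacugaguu
miR-144-3p: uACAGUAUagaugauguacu
miR-144-5p: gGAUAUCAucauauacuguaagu
The first lies at chr11:78073186-78073207, the second at chr11:78073047-78073066 and the third at chr11:78073010-78073032, all on the plus strand. No other mature miRNA in the RefSeq table had the same bases 2 to 8 as any of these 3, and bases 2 to 7 of miR-144-3p were shared with 1 other, miR-101a-3p. Both hairpins follow with their mature strands in capitals, to show that the Mir451a hairpin gives 1 listed strand and the Mir144 hairpin gives 2.
Mir451a: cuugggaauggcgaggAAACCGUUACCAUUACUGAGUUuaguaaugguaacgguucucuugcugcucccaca
Mir144: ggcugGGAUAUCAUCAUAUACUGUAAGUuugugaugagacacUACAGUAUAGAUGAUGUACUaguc
Mir144 (chr11:78073005-78073070) and Mir451a (chr11:78073170-78073241) are parted by 99 bases on the plus strand of mm10. On the minus strand the same span as Mir451a is annotated as Mir451b, whose row miR-451b held 0 counts in all 85 libraries. A pair of miRNAs that are not members is shown as well, because their counts went with those of miR-451a.
miR-142a-3p: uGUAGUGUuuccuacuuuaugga
miR-16-5p: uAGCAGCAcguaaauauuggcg
MiR-142a-3p (chr11:87756903-87756925, plus strand) is known from blood-forming cells, and no other mature miRNA in the RefSeq table had its seed. MiR-16-5p is made from hairpins on chromosomes 3 and 14 and shares its seed with 9 others, among them miR-15a-5p and miR-15b-5p.

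Mir486 lies at chr8:23142555-23142682 on the plus strand, inside Ank1 (chr8:22974844-23150497) and under none of its annotated exons, so its place is intronic. Mir3107, the gene of miR-486b, is annotated on the minus strand at chr8:23142573-23142662, within the span of Mir486. Whether reads were counted by strand is not given in the sources used here, and reads of one gene cannot be told apart from those of the other in these files. The 3p rows of the pair were nearly as alike, with 309 counts for miR-486a-3p and 298 for miR-486b-3p and equal counts in 73 of 85 libraries.

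The libraries were shallow and fell into a pair of sets. Their totals ran from 1457 to 30202 counts with a median of 12248, and 548 rows had a count in any library. At the median depth a count of 0 allows a share of up to 0.0245% (3 counts), and the Wilson intervals given for shares cover counting error only. The first principal component of log2 CPM (read counts scaled to a common library size) over 50 abundant miRNAs, none of them a member, held 77.2% of the variance and put 27 libraries (set B) on one side and 58 (set A) on the other. Set B holds the library numbers 1 to 10, 15 to 18, 20, 21 and 49 to 59. These sets are not in the labels, so values are given within each set and differences between the sets are described with no test. Library 14, with 1457 counts and a score of 1.32, lay between them and was placed in set A. Libraries 9 and 18 had the highest scores on that component and the highest miR-486a-5p, and results that rest on them are given with and without them. The 6 listed cardiomyocyte miRNAs were miR-1a, miR-133a, miR-133b, miR-208a, miR-208b and miR-499. They held 18.6% to 29.3% of the counts of a library in set A and 17.7% to 24.4% in set B. These shares leave out miR-1b-5p, which is not on the list and held 251291 counts, beside 202280 for miR-1a-3p. All 6 had counts, as did the leukocyte, endothelial, smooth muscle, fibroblast and liver or plasma lists.

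MiR-451a was the most abundant member. It held 3047 counts, 0.267% of all counts (95% Wilson interval 0.257% to 0.276%), and ranked 39 among the miRNAs. Every heart had a count of it, from 1 to 187 with a median of 24. In set A its level ran from 533 CPM in library 14 (1 count) through a median of 2353 to 10328 CPM in library 66 (187 counts). Set B ran from 302 CPM in library 2 (4 counts) through a median of 1316 to 3311 CPM in library 4 (37 counts). The sets overlapped between 533 and 3311 CPM, and the 3 highest hearts, libraries 66, 79 and 36, were all in set A.

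The arms of miR-144 were much rarer. MiR-144-3p held 430 counts and was at 0 in 21 of 85 libraries. In set A it was at 0 in 2 of 58 libraries and reached 1878 CPM in library 71 (29 counts), with a median of 413 CPM. In set B it was at 0 in 19 of 27 libraries, the set held 14 counts of it in all, and no library there passed 213 CPM. MiR-144-5p held 552 counts and was at 0 in 1 library of set A and in 7 of set B. Its median was 555 CPM in set A, with 1785 CPM in library 36 (35 counts) as the highest, and 95.7 CPM in set B, with 431 CPM in library 59 (9 counts) as the highest. For both arms no library of set B reached the median of set A, and the sets overlapped at the low end. In bulk tissue, fewer cells of a type and less of its RNA per cell cannot be told apart.

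MiR-486a-5p held 1322 counts, 0.116% of all, and was found in every heart, with 3 to 72 counts and a median of 13. Set A had a median of 929 CPM for it, between 233 CPM in library 75 (3 counts) and 2448 CPM in library 36 (48 counts). In set B the median was 1297 CPM, the lowest was 532 CPM in library 6 (5 counts) and the highest 6093 CPM in library 18 (72 counts). Library 9, with 67 counts and 5027 CPM, was the second highest, and the third, library 36, lay far below both. Libraries 9 and 18 did not stand out in miR-451a, since they held 18 and 17 counts of it and ranked 64 and 63 of 85.

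**Figure D1:**
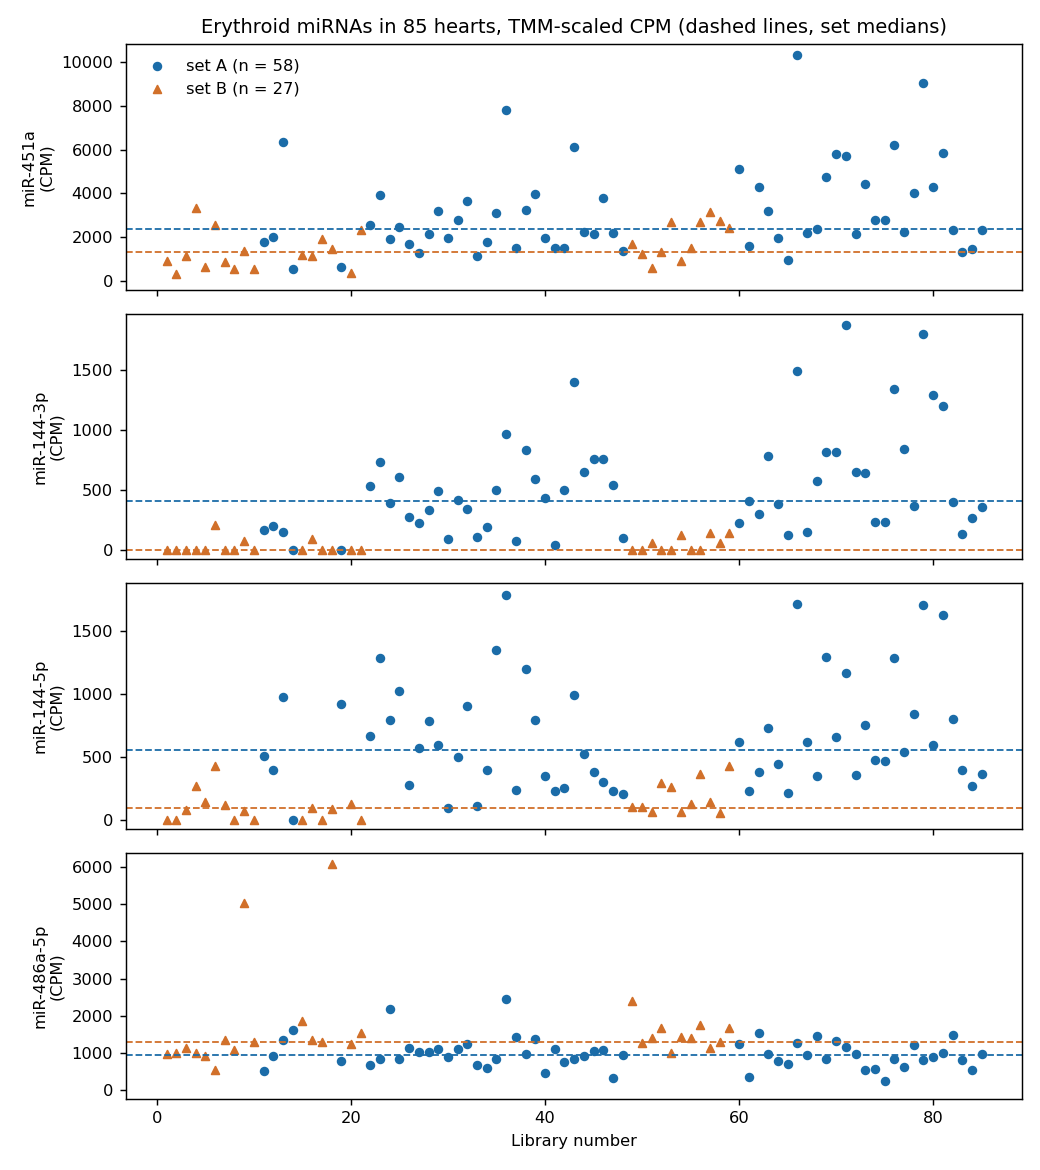
Level of the 4 erythroid miRNAs in CPM (vertical axes, linear, each with its own scale) against library number (horizontal axis) in the 85 hearts, with circles for set A, triangles for set B and dashed lines at the set medians. MiR-144-3p lies at 0 in 19 of 27 libraries of set B, and miR-486a-5p is highest in libraries 9 and 18, at 5027 and 6093 CPM.

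The members differed between the sets in opposite directions. Pooled over libraries, miR-451a held 0.294% of the counts in set A (0.283% to 0.306%) and 0.193% in set B (0.178% to 0.209%), a ratio of 1.52. For miR-144-3p the shares were 0.0499% (0.0453% to 0.0549%) and 0.00454% (0.00270% to 0.00762%), a ratio of 10.99. MiR-144-5p held 0.05996% in set A (0.0549% to 0.0655%) and 0.0169% in set B (0.0129% to 0.0221%), 3.56 times as much in set A. MiR-486a-5p went the other way, with 0.0871% in set A (0.0810% to 0.0936%) and 0.193% in set B (0.178% to 0.209%), and still 0.158% (0.144% to 0.173%) in set B when libraries 9 and 18 were left out. The neighbours miR-144 and miR-451a therefore stood in different ratios, with 16.97 counts of miR-144-3p for 100 of miR-451a in set A and 2.35 in set B. MiR-486a-5p stood at 29.6 counts for 100 of miR-451a in set A and at 100 in set B, where both happened to hold 596 counts. MiR-142a-3p, which is not a member, held 1.69% of the counts in set A and 0.238% in set B. It was among the 50 miRNAs whose first component gave the sets, which the members were not. Its difference is therefore partly built into the sets. What sets the libraries apart was not tested.

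**Figure D2:**
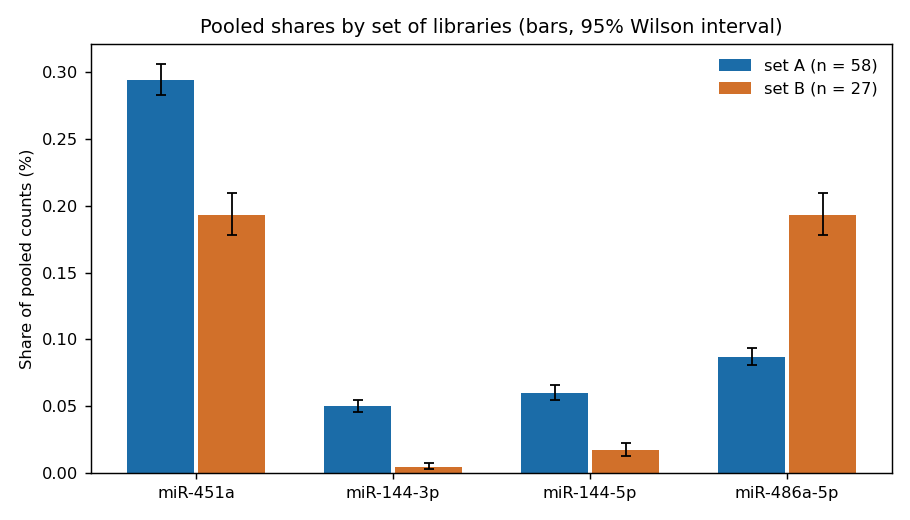
Share of each erythroid miRNA in the pooled counts of set A (58 libraries) and set B (27 libraries), in percent on a linear axis from 0, with bars for 95% Wilson intervals, which cover counting error only. MiR-451a and both arms of miR-144 have the larger share in set A and miR-486a-5p has it in set B, 0.193% against 0.0871%.

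The arms of miR-144 also differed in their balance. Together they held 982 counts, of which 43.8% came from the 3p arm (40.7% to 46.9% by Wilson's method). It was 45.4% of 916 counts in set A (42.2% to 48.7%) and 21.2% of 66 counts in set B (13.1% to 32.5%). In the 35 libraries with at least 10 counts of both arms together, 34 of them in set A, the share ran from 13.3% to 71.4% with a median of 45.5%. The arms of miR-486a kept nearly the same balance, with 19.3% of counts on the 3p arm in set A (16.9% to 22.04%) and 18.5% in set B (15.8% to 21.4%), and the 5p arm was the higher in 85 of 85 libraries.

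Among the 54 miRNAs fitted, the miR-451a and miR-144 rows had the widest spread between hearts. The 54 are 50 abundant miRNAs that passed a filter on low counts and the 4 members, added whether they passed or not. Both miR-144 rows and miR-486a-5p failed that filter, and other miRNAs as rare as these were not ranked. With the set as a term in edgeR, the biological coefficient of variation, the spread between hearts beyond counting error, was 62.9% for miR-144-3p, 54.03% for miR-451a and 50.7% for miR-144-5p, ranks 1, 2 and 3 of the 54 miRNAs fitted. MiR-142a-3p came next with 45.2%, then miR-486a-5p with 37.9%, and miR-499-5p, a cardiomyocyte miRNA, with 36.3%. The SD of log2 CPM between hearts was 0.83 for miR-451a over the hearts of set A and 0.84 over those of set B. MiR-486a-5p had 0.51 over set A and 0.64 over set B, where leaving out libraries 9 and 18 gave 0.37. A chi-square per degree of freedom of 1 would be pure counting error, and miR-451a had 17.4 in set A against 6.62 in set B. MiR-144-3p, at 4.28 in set A, was close to counting error in set B, at 1.24, so that little variation between hearts could be measured there. MiR-486a-5p had 2.31 in set A and 12.7 in set B, which dropped to 1.42 without libraries 9 and 18.

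MiR-451a and both arms of miR-144 went up and down together in set A. Over its 58 hearts Pearson's r of log2 CPM was 0.76 between miR-451a and miR-144-3p (Spearman's rho 0.71), 0.74 between miR-451a and miR-144-5p (rho 0.73) and 0.64 between the arms of miR-144 (rho 0.58). Each of these had a permutation p of 1e-05 for r and for rho, the smallest that 100000 resamples can give, and 4e-05 after Benjamini-Hochberg adjustment over the 24 values of 6 pairs, 2 sets and 2 measures. Without the 2 hearts farthest from the median of the first miRNA of each pair r was 0.72, 0.70 and 0.67. The points share libraries and their depth.

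In set B, where miR-144 was near the limit of counting, 1 of the 3 pairs passed the adjusted threshold. MiR-451a and miR-144-5p had an r of 0.52 over 27 hearts (permutation p = 0.00613, adjusted p = 0.0210; rho 0.48, p = 0.0119, adjusted p = 0.0357) and 0.53 without the 2 farthest hearts. Given the log2 library total and the library number the partial r was 0.43 with an adjusted permutation p of 0.0713 (partial rho 0.38, adjusted p = 0.120). The rho of this pair also missed the threshold with DESeq2 size factors (adjusted permutation p = 0.0611) and on CPM without TMM (rho 0.37, adjusted p = 0.168). With TMM from the kept miRNAs it missed it too (adjusted p = 0.0684), although r passed under each of these. MiR-451a and miR-144-3p had an r of 0.30 (permutation p = 0.131, adjusted p = 0.242; rho 0.26, adjusted p = 0.297), and the arms of miR-144 had 0.36 (permutation p = 0.0630, adjusted p = 0.151; rho 0.23, adjusted p = 0.368).

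MiR-486a-5p had smaller r with the others, and no pair with it passed the adjusted threshold over all hearts of a set. In set A its r with miR-451a was 0.24 over 58 hearts (permutation p = 0.0720, adjusted p = 0.157; rho 0.27, p = 0.0377, adjusted p = 0.101). This r was 0.34 with an adjusted permutation p of 0.0259 when library 14 was left out and the library sizes were computed anew. With miR-144-5p it was 0.22 (permutation p = 0.103, adjusted p = 0.207; rho 0.19, adjusted p = 0.247), but 0.32 when library 14 was left out in the same way (adjusted permutation p = 0.0289) and 0.32 without the 2 hearts farthest from the median of miR-144-5p (adjusted permutation p = 0.0383). With miR-144-3p it was 0.06 (permutation p = 0.654, adjusted p = 0.785; rho 0.04, adjusted p = 0.851). In set B the 3 values of r were 0.06, -0.11 and -0.11, with adjusted permutation p from 0.755 to 0.851. Among the 53 miRNAs compared with miR-451a, miR-486a-5p was 10th in set A and 33rd in set B by r. The difference of these r from those of miR-144 was not tested.

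**Figure D3:**
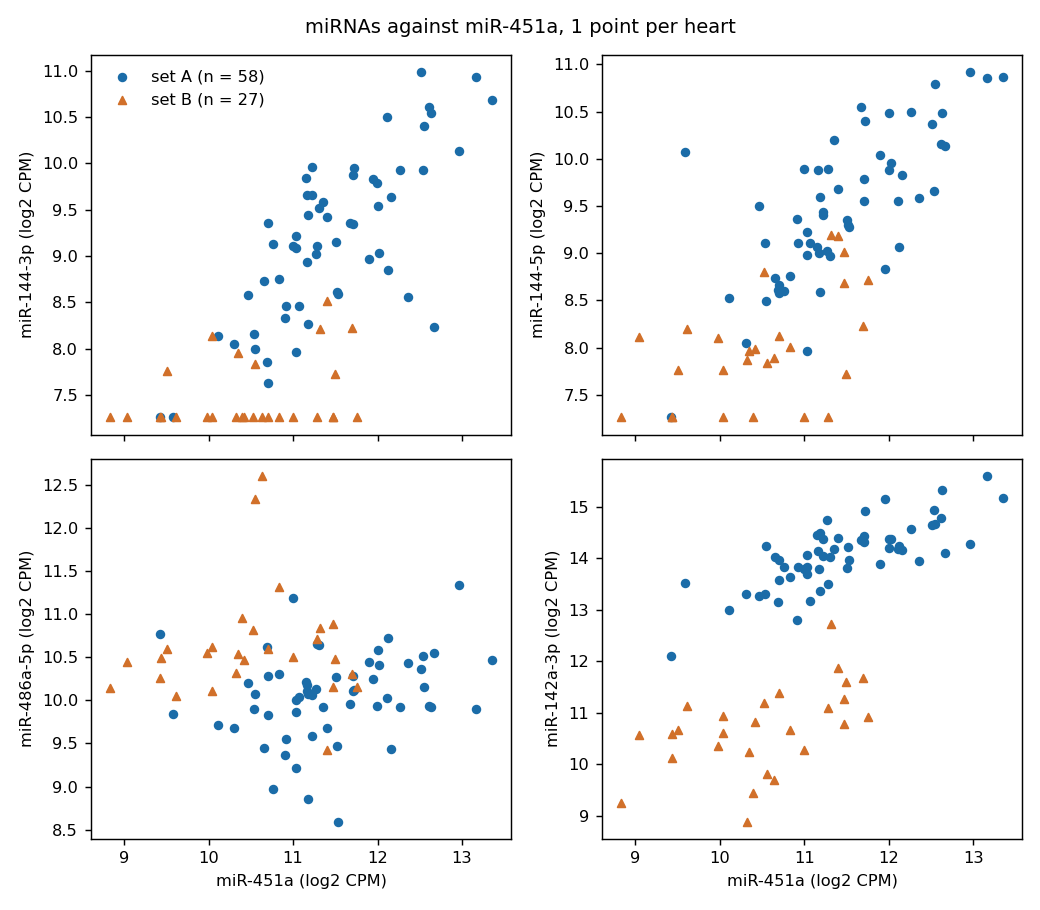
Log2 CPM of miR-144-3p, miR-144-5p, miR-486a-5p and miR-142a-3p (vertical axes) against that of miR-451a (horizontal axes), with 1 point per heart, circles for the 58 hearts of set A and triangles for the 27 of set B. Both arms of miR-144 and miR-142a-3p climb with miR-451a in set A (r of 0.76, 0.74 and 0.77), miR-486a-5p has an r of 0.24, and the row of triangles at the foot of the first panel holds the hearts of set B with 0 counts of miR-144-3p.

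The slope of each miRNA on miR-451a was then fitted over all 85 hearts with edgeR's quasi-likelihood test, with the set as a term, on 53 miRNAs. A slope of 1 would mean that a miRNA kept its ratio to miR-451a from heart to heart, if miR-451a were measured without error. Its counting error, at a median of 24 counts, is not in the fit and can make slopes smaller in size. The same holds for other miRNAs used as the measure. MiR-144-3p had a slope of 0.98 ± 0.11 (SE; 95% interval 0.77 to 1.20, Benjamini-Hochberg adjusted p = 6.19e-13) and miR-144-5p one of 0.86 ± 0.090 (0.68 to 1.04, adjusted p = 1.00e-13). Both intervals held 1. MiR-486a-5p had a slope of 0.19 ± 0.087 (0.01 to 0.36), and its adjusted p of 0.122 missed the threshold of 0.05. Of the 53 miRNAs tested 5 passed it, 9.43%, all with positive slopes, and 17 had an unadjusted p under 0.05.

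Taking libraries 9 and 18 out changed the call of miR-486a-5p but hardly its slope, which was then 0.18 ± 0.066 with an adjusted p of 0.0442 in edgeR's quasi-likelihood test. The number of miRNAs called rose from 5 to 14 (26.4%), 10 with positive and 4 with negative slopes, and held all 5 of the first fit. Among the added ones were the cardiomyocyte miRNAs miR-499-5p (0.18), miR-1a-3p (0.10) and miR-133a-3p (-0.10). With the score on the first component as a further term, a choice made after the values were seen, miR-486a-5p had a slope of 0.33 ± 0.072 and an adjusted p of 1.14e-04, and 7 miRNAs were called (13.2%). That slope was 0.25 ± 0.068 (adjusted p = 0.00401) when libraries 9 and 18 were also left out. Within set A miR-486a-5p had an r of 0.23 with the score, and miR-451a one of -0.40. The part of the component in these slopes was not tested further.

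Outside the members, miR-142a-3p followed miR-451a most closely. Its slope was 0.58 ± 0.064 (95% interval 0.45 to 0.71, edgeR adjusted p = 3.55e-13), 0.57 in set A alone and 0.63 in set B alone. With the score on the first component as a term the slope was 0.40 ± 0.046 (adjusted p = 1.14e-12). MiR-142a-3p had an r of -0.71 with that score in set A and -0.81 in set B. By r with miR-451a it was the first of 53 in set A (0.77, against 0.76 for miR-144-3p) and the second in set B (0.51). MiR-16-5p, an abundant miRNA of red cells and of many other cells, had a slope of 0.20 ± 0.035 (0.13 to 0.27, adjusted p = 2.36e-06), with 0.24 in set A alone, and in set B alone it was not called (0.12, adjusted p = 0.160). MiR-143-3p, of smooth muscle, had a slope of 0.10 ± 0.032 and an adjusted p of 0.0226. This call was not stable. It was lost without library 14, 57 or 79 (adjusted p of up to 0.0728, although 0.0290 without library 14 when library sizes were computed anew), in each set alone, with DESeq2 size factors or its Wald test, on CPM without TMM, with no filter, with TMM from the kept miRNAs, and with the log2 total, the library number or the first component as a term. Over these alternatives its slope ran from 0.04 with the first component as a term to 0.16 in set B alone, and the adjusted p in edgeR reached 0.598 with the library number as a term. MiR-142a-3p, miR-16-5p and both arms of miR-144 were called in each of the 85 fits that left out 1 library. The slope of miR-144-3p stayed between 0.94 and 1.03 in these fits and that of miR-486a-5p between 0.13 and 0.21.

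**Figure D4:**
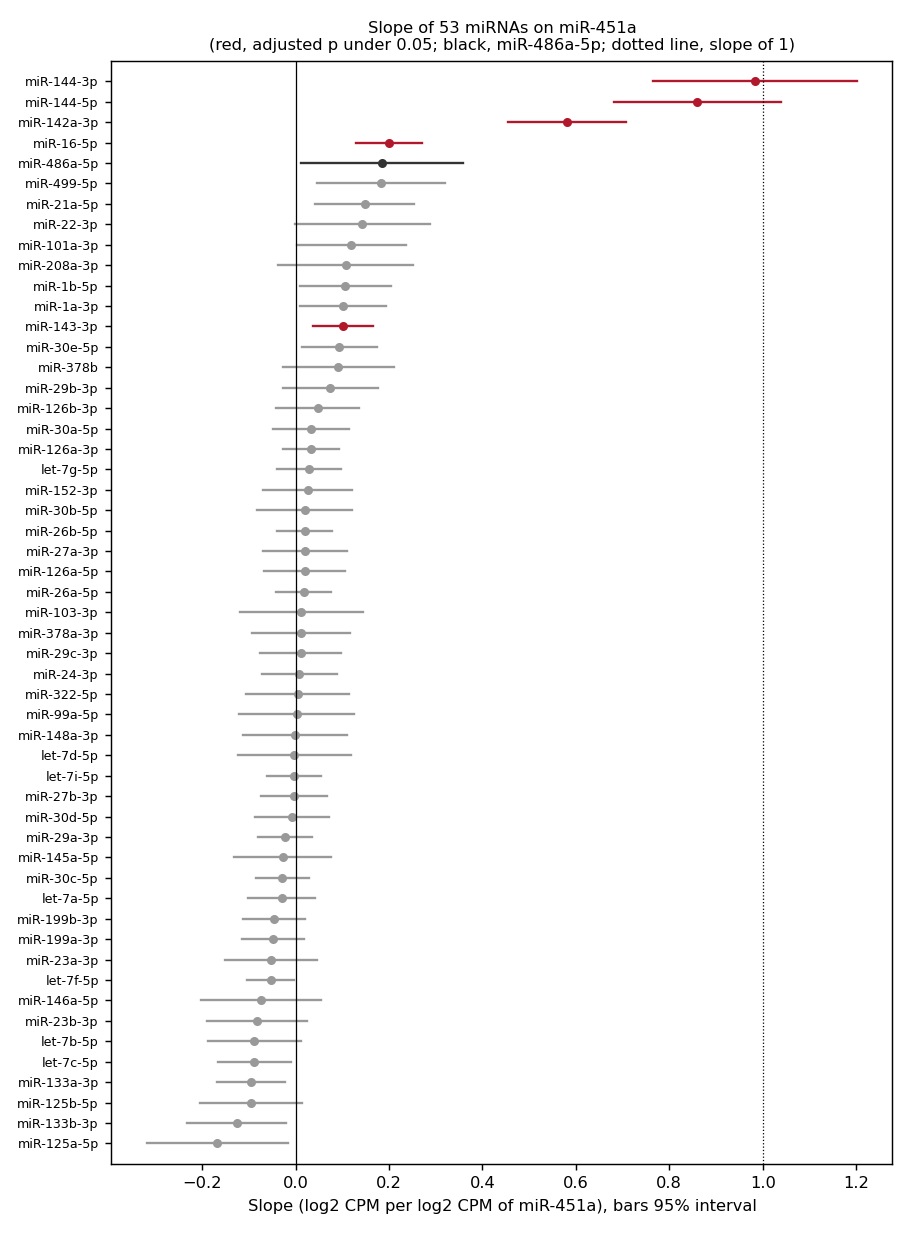
Slope of 53 miRNAs on miR-451a in log2 CPM per log2 CPM (horizontal axis), sorted from the highest to the lowest, with dots for the estimates and bars for 95% intervals of the fit over 85 hearts. The 5 in red passed the adjusted threshold, led by miR-144-3p at 0.98 and miR-144-5p at 0.86, whose bars cross the dotted line at 1, and miR-486a-5p is in black at 0.19.

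The slopes were not found to differ between the sets. In the test of the difference 0 of 53 miRNAs were called (0%) by edgeR's quasi-likelihood test, with 9 at an unadjusted p under 0.05, and the adjusted p was 0.941 for miR-144-3p, 0.764 for miR-144-5p and 0.599 for miR-486a-5p. In set B alone miR-144-3p, with its 14 counts, had a slope of 0.83 and an adjusted p of 0.209, whereas miR-144-5p had 0.95 and 0.0377.

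Other miRNAs that red cells carry were mostly too rare for the filter on low counts, and were fitted with every row that had a count. Of the 19 listed ones, all had counts, and 15 had a positive slope, with a median of 0.16. Over all 546 rows the median was 0.02, and 300 were positive. The sign says little for the rarest rows, such as miR-363-3p (1 count) and miR-182-5p (9 counts). Over the 144 rows with at least 85 counts the median was also 0.02, and 87 were positive. Of the listed rows at that depth, miR-185-5p alone had a negative slope. In that fit 11 of the 546 were called (2.01%), 8 with positive and 3 with negative slopes. The negative ones were miR-342-3p (-0.37 ± 0.096, edgeR adjusted p = 0.0116), miR-5121 (-0.47 ± 0.13, adjusted p = 0.0153) and miR-466i-5p (-0.88 ± 0.17, adjusted p = 0.0434). Of the called rows only miR-466i-5p, with 6 counts, had fewer than 85, so the share called was higher among the 144 deeper rows. On the red cell list 3 were called, miR-16-5p (0.20 ± 0.036), miR-93-5p (0.27 ± 0.064, edgeR adjusted p = 0.00357) and miR-20a-5p (0.36 ± 0.089, adjusted p = 0.00635). MiR-93 and miR-20a belong to the related miR-106b and miR-17 clusters, which are active in dividing blood progenitors. MiR-19b-3p (0.09 ± 0.071) and miR-25-3p (0.13 ± 0.074), both with more counts than miR-93-5p, were not called, nor was miR-185-5p (-0.01 ± 0.086). The list was drawn up with earlier results of these libraries known.

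The leukocyte list did not move as one. MiR-142a-3p and its other arm miR-142a-5p (0.48 ± 0.075, edgeR adjusted p = 3.25e-07) were called, and so was miR-142b (0.49 ± 0.12, adjusted p = 0.00357), which is annotated on the strand opposite miR-142a, so that without known strand its reads and those of miR-142a cannot be told apart. The other 4 listed leukocyte miRNAs were not. MiR-223-3p, of neutrophils and other myeloid cells, had 1111 counts and a slope of 0.00 ± 0.072, and miR-146a-5p, with 1309 counts, had -0.07 ± 0.066. MiR-150-5p, of mature lymphocytes, had -0.15 ± 0.093 and miR-155-5p, of activated leukocytes, had 0.17 ± 0.099. Over the 6 members the median was 0.09. The summed share of the list ran from 0.798% to 4.29% of the counts in set A and from 0.552% to 1.22% in set B, and miR-142a-3p was its most abundant member.

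**Figure D5:**
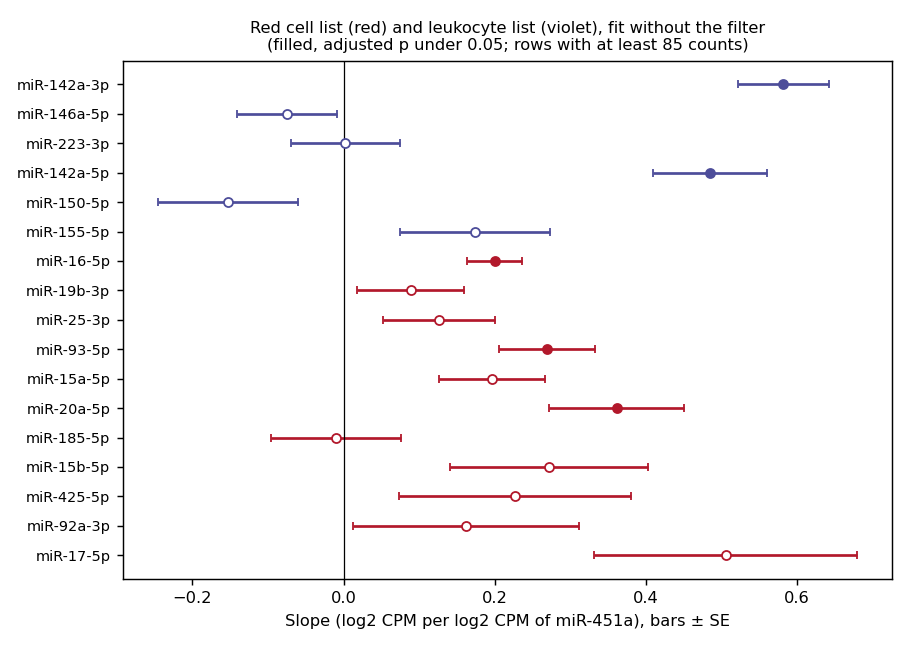
Slope on miR-451a (horizontal axis, log2 CPM per log2 CPM) of the listed red cell miRNAs in red and leukocyte miRNAs in violet, each ordered by counts, for rows with at least 85 counts in the fit without the filter, with bars of ± 1 SE over 85 hearts. Filled points passed the adjusted threshold. Both arms of miR-142a lie at 0.58 and 0.48, while miR-223-3p lies at 0.00 and miR-150-5p at -0.15.

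With miR-142a-3p itself as a further term, also chosen after the values were seen, both arms of miR-144 and miR-16-5p were still called on miR-451a, and miR-486a-5p, which was not called without that term, was called as well. MiR-144-3p had a slope of 0.47 ± 0.15 (edgeR adjusted p = 0.0197), lower than the 0.98 without that term, miR-144-5p had 0.74 ± 0.13 (adjusted p = 3.29e-06), miR-486a-5p had 0.44 ± 0.10 (adjusted p = 4.57e-04) and miR-16-5p 0.25 ± 0.047 (adjusted p = 1.11e-05). This fit called 8 of 52 miRNAs (15.4%), the other 4 with negative slopes, which were miR-208a-3p (-0.34), miR-101a-3p (-0.20), miR-148a-3p (-0.20) and miR-126b-3p (-0.17). In set A miR-144-3p had an r of 0.77 with miR-142a-3p, next to 0.76 with miR-451a.

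Few miRNAs of other heart cells were called. Of 5 cardiomyocyte miRNAs tested, 0 were called over all hearts by edgeR, with slopes from -0.13 (miR-133b-3p, adjusted p = 0.122) to 0.18 (miR-499-5p, adjusted p = 0.0737). In set A alone miR-133a-3p was called (-0.11, adjusted p = 0.0411), in set B alone miR-499-5p was (0.40, adjusted p = 0.0377), and without libraries 9 and 18 both of these and miR-1a-3p were. The pair of endothelial miRNAs had slopes of 0.03 (miR-126a-3p) and 0.02 (miR-126a-5p), and the pair of fibroblast miRNAs tested had -0.05 each, none of them called. On the liver or plasma list, in the fit without the filter, miR-122-5p had 0.13 ± 0.16, miR-192-5p 0.02 ± 0.12 and miR-194-5p -0.09 ± 0.098, none called. The 3 highest positive r with miR-451a outside the members were those of miR-142a-3p (0.77), miR-16-5p (0.53) and miR-152-3p (0.30) in set A. In set B they were those of miR-142a-3p (0.51), miR-143-3p (0.48) and miR-378b (0.46). The r largest in size in set B was negative, that of let-7f-5p (-0.66, rho -0.69). The slope of let-7f-5p was -0.15 in set B alone (edgeR adjusted p = 0.0377) and -0.01 in set A alone (adjusted p = 0.941). It was not called over all hearts (-0.05, adjusted p = 0.122), nor was its difference between the sets (adjusted p = 0.139).

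When miR-486a-5p took the place of miR-451a as the measure, a different group of miRNAs followed, and most of it rested on libraries 9 and 18. Over all hearts 24 of 53 were called (45.3%), 14 with positive slopes such as miR-378a-3p (0.38 ± 0.062) and miR-125a-5p (0.51 ± 0.084) and 10 with negative ones such as miR-126b-3p (-0.31 ± 0.065). Without libraries 9 and 18 only miR-378a-3p was called, 1 of 53 (1.89%), with a slope of 0.35 ± 0.075 and an edgeR adjusted p of 7.80e-04. MiR-378a, made from an intron of Ppargc1b, is abundant in heart and skeletal muscle. MiR-451a had a slope of 0.35 ± 0.16 on miR-486a-5p (adjusted p = 0.0585), or 0.49 ± 0.18 without these libraries (adjusted p = 0.0943). MiR-144-5p had 0.46 ± 0.19 (adjusted p = 0.0384), or 0.58 ± 0.21 without them (adjusted p = 0.0943), and miR-144-3p had 0.28 ± 0.24 (adjusted p = 0.341).

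Of the 4 members fitted, 2 had a trend with library number past the threshold, miR-144-3p and miR-451a. With the set as a term, 32 of all 54 miRNAs fitted had one (59.3%), 25 of them upward. MiR-144-3p gained 0.19 ± 0.055 on the log2 scale per 10 libraries (edgeR adjusted p = 0.00201) and miR-451a 0.11 ± 0.038 (adjusted p = 0.00898). For miR-144-5p the trend was 0.06 ± 0.047 (adjusted p = 0.290) and for miR-486a-5p -0.03 ± 0.033 (adjusted p = 0.378). The trend of miR-451a was not past the threshold within set A alone (0.10, adjusted p = 0.0673), within set B alone (0.15, adjusted p = 0.0808), on CPM without TMM (0.07, adjusted p = 0.100) or with the log2 library total as a term (0.08, adjusted p = 0.179). With library number as a term in the fit on miR-451a, the slope of miR-144-3p was 0.92, so the relation was nearly as large. The labels also give an animal number, which rises in the same order as the library number, so their trends cannot be told apart. What the library number stands for is not given beyond the label, and its part in the levels was not tested.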

How the data were processed

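The authors prepared total RNA of heart tissue with a QIAseq miRNA kit for HiSeq sequencing, and used HISAT2 2.0.6 for mapping and HTSeq 0.13.5 for counting; the submitters' processing notes name mm10. The deposited values are raw counts per mature miRNA for 85 libraries, without normalization. Adapter trimming, the strand setting and whether molecular identifiers were used are not given in the sources used here. Wilson intervals of shares cover counting error only. Intervals of slopes come from the quasi-likelihood fit and include the spread between hearts, but not the counting error of the covariate.

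Library sizes and TMM factors came from all rows with a count except the 5 members, in edgeR 4.0.16 under R 4.3.3. Low counts were filtered by filterByExpr (minimum count 10, minimum total 15), which kept 50 other miRNAs, and the members were added whether they passed or not (1 of 5, miR-451a, passed). Log2 CPM used a prior count of 2. Sets of libraries came from 2-means on the first component. Slopes, trends and the difference between the sets used glmQLFit and glmQLFTest over all miRNAs tested, with Benjamini-Hochberg adjustment at 0.05. The covariate was log2 CPM of miR-451a centred within its set. SEs were derived from the F statistic. Correlations used two-sided permutation tests of 100000 resamples (numpy 2.4.6), and shares 95% Wilson intervals (scipy 1.17.1). Scripts were tested on simulated data. Labels name 1 animal per library, with no further replicate.

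The members, lists, tests and alternatives were chosen with earlier results of these data known. Alternatives were DESeq2 1.42.0 size factors and Wald test, CPM without TMM, no filter, 84 deeper libraries (a total of at least 3062 counts), each set alone, a prior count of 0.5, and added terms or other covariates. Added after seeing these values were TMM from the kept miRNAs, the first component or miR-142a-3p as a term, leaving out libraries 9 and 18, and leaving out each library in turn. Named miRNAs were the members, other rows of their loci, the 3 nearest by r in each set, and the lists with examples. Also named were the 5 largest slopes each way among those called with the same sign in both sets (5 positive and 0 negative). Chosen after their values were seen were miR-142b, miR-378a-3p, miR-125a-5p, miR-126b-3p, miR-101a-3p, miR-148a-3p, let-7f-5p, miR-1b-5p, miR-342-3p, miR-5121 and miR-466i-5p. Coordinates come from the GENCODE annotation of GRCm38, and sequences from RefSeq on GRCm38.p6. Plots were drawn with matplotlib 3.10.9.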

Additional observations from a re-analysis of the deposited data

Results flagged for a closer look

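The 3p rows of the miR-486 loci, which are not members, held counts. MiR-486a-3p had 309 counts over all libraries and miR-486b-3p had 298, each with a median of 3 per library. Within set A the level of miR-486a-3p had an r of 0.16 with that of miR-486a-5p over 58 hearts (rho 0.16), and within set B one of 0.57 over 27 hearts (rho 0.55). On miR-451a the slope of miR-486a-3p was 0.19 ± 0.10 in the fit without the filter, beside 0.19 ± 0.084 for miR-486a-5p, and neither was called by edgeR's quasi-likelihood test (adjusted p = 0.460 and 0.319). Whether these reads came from Mir486 or from Mir3107 was not tested.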

How the results depend on the processing

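Depth limited the arms of miR-144, since miR-144-3p had a median of 3 counts per library and miR-144-5p 5. The slopes of miR-144-3p and miR-144-5p stayed past the threshold under every alternative that kept miR-451a as the covariate, except miR-144-3p in set B alone (0.83). The slope of miR-486a-5p passed it only with the first component as a term (0.33, or 0.25 without libraries 9 and 18), with miR-142a-3p as a term (0.44) or without libraries 9 and 18 (0.18). The number of miRNAs called, 5 of 53, was 11 of 546 with no filter, 8 with miR-142a-3p as a term, 14 without libraries 9 and 18, and between 4 and 10 when 1 library was left out, with 8 without library 13 and 10 without library 36. With other covariates it was 8 for miR-144-3p and 24 for miR-486a-5p, or 1 for the latter without libraries 9 and 18. The slope of miR-143-3p lost its call under most alternatives and was -0.0058 with miR-142a-3p as a term. Correlations of miR-451a with miR-486a-5p in set A (0.34 in the deeper libraries) and with miR-144-5p in set B (0.43 as a partial r), and of miR-144-5p with miR-486a-5p in set A (0.323 in the deeper libraries, 0.325 without the 2 farthest hearts), changed sides of the threshold. In pairs with miR-486a-5p the sign turned for miR-144-3p in set A on CPM without TMM (-0.0126) and, without the 2 farthest hearts, in set B for miR-451a (-0.0270), miR-144-3p (0.18) and miR-144-5p (0.0135), none of them past the threshold. The trend of miR-451a was no longer called within set A (0.0999), within set B (0.146), with the log2 total as a term (0.0761) and without the TMM factors (0.0727), nor that of miR-144-3p in set B (0.256). That of miR-486a-5p was called on CPM without TMM (-0.0756) and was 0.0044 without libraries 9 and 18. With a prior count of 0.5 the SD of log2 CPM in set B was 0.93 for miR-144-3p and 1.19 for miR-144-5p, as a smaller prior spreads counts near 0. The 3p share of miR-144 was 21.2% in set B alone. Correlations were judged by r here. The rho of miR-451a with miR-144-5p in set B lost its call with DESeq2 size factors, on CPM without TMM, with TMM from the kept miRNAs and as a partial rho. Among the main results 172 other values under the alternatives did not change in direction or call, or moved less than the limit set. The causes of the changes were not tested.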
